A study of Mus musculus with 2 samples.

Results

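The C-type lectin family genes were examined in whole-layer back skin of mice, stretched or not. They were taken as all gene symbols of the count table that start with Clec (32 genes), together with Cd207, Cd209a, Cd209b, Cd209d, Cd209f, Klrb1b, Klrd1 and Klrk1 (8 genes). These 40 genes are among 24421 in the table. A gene with 3 counts or fewer in both libraries was taken as unmeasured, which left 33 of the 40 lectin genes and 16255 genes in all. One library was made from skin stretched for 5 days at 33% strain (stretched skin) and 1 from skin without strain at day 5 (control skin), both from wild type C57BL6/J mice with no transgene or deletion. The methods describe 8-week-old female mice with hair follicles in telogen, a device glued to the back whose strain was increased daily from its initial value, and skin harvested away from the glued area. The labels do not say how many mice each library holds. With 1 library per condition there is no replicate, so no p-value is given, and the condition cannot be told apart from any other difference between these libraries.

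C-type lectins are proteins built around a fold that in its classical members binds sugars with the help of calcium, while other members bind proteins or lipids. Many sit on macrophages, dendritic cells and other myeloid cells, where they recognise fungi, mycobacteria and material from dying cells. Activating members such as Dectin-1, Dectin-2 and Mincle signal through the kinase Syk and the adaptor Card9, often by way of the Fc receptor gamma chain (Fcer1g) or DAP12 (Tyrobp). Inhibitory members carry a motif that recruits phosphatases. A further branch holds receptors of natural killer (NK) cells and their Clec2 ligands, and a few members are secreted or lie on endothelium. In skin, langerin (Cd207) is known as the lectin of Langerhans cells.

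The deposited values are counts of reads per gene, with totals of 14152379 for the control library and 11648655 for the stretched one. They were scaled by these totals to CPM, on which 3 counts are 0.212 and 0.258. A fold change is the CPM in stretched skin over that in control skin, with an exact 95% Clopper-Pearson interval that covers counting error only. A gene was called higher or lower at a ratio of at least 2 or at most 0.5, with counts of 3 or fewer set to 3. Medians use the same floor, while the ratio printed for a single gene is that of the counts as deposited. The median log2 fold change of all measured genes was -0.12. Scaling by TMM or by the median of ratios would raise every log2 fold change by 0.10 or 0.11, and no measured lectin gene changes sign under these or the other scalings tried. The keratinocyte genes Krt5, Krt14 and Krt10 had between 38376 and 63504 counts in each library, and the muscle gene Acta1 had 127849 and 100096, so transcripts of epidermis and muscle were abundant in both libraries.

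Part of the lectin family was higher in stretched skin. Of the 33 measured, 13 were called higher (39.4%) and 20 were not, where 6.32% of all measured genes were called higher. None was called lower, where 5.47% of all genes were. Their median log2 fold change was 0.82 (0.46 to 0.52 with 1 CPM added, with at least 100 counts or with the filters on FPKM), and the counts of these 33 genes summed to 7306 (516.2 CPM) in the control library and 8848 (759.6 CPM) in the stretched one. The interval lay wholly above 0 for 22 of them (18.1% of all genes), wholly below 0 for 1 (33.5% of all genes) and included 0 for 10. For 9 lectin genes the whole interval lay above a ratio of 2, as it did for 2.41% of all genes. These were Clec4d, Clec4e, Clec12a, Klrd1, Clec4n, Clec7a, Clec4a3, Clec4a1 and Clec4a2. None had its whole interval under a ratio of 0.5 (1.96% of all genes). In bulk skin, more cells of a type and more RNA per cell cannot be told apart. With at least 20 counts over both libraries, the same 13 genes were called higher of 29 (4.98% of all genes) and 0 lower (5.02%). With at least 100 counts, 7 of 19 lectin genes were called higher (3.67% of all genes) and 0 lower (3.84%), and the median log2 fold change of the 19 was 0.52. The methods keep genes with a product of both FPKM values above 10 and state no pseudocount. With nothing added this kept 14 lectin genes, of which 4 were called higher (2.94% of the genes kept) and 0 lower (2.85%). With 1 added to each FPKM it kept 16, of which 5 were called higher (2.61%) and 0 lower (2.43%). Klrk1, Clec10a and Clec12b lay close under the threshold and would be called higher with TMM, the median of ratios or the upper quartile, which raises the count to 16. The share of all genes called under these scalings was not counted.

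**Figure D1:**
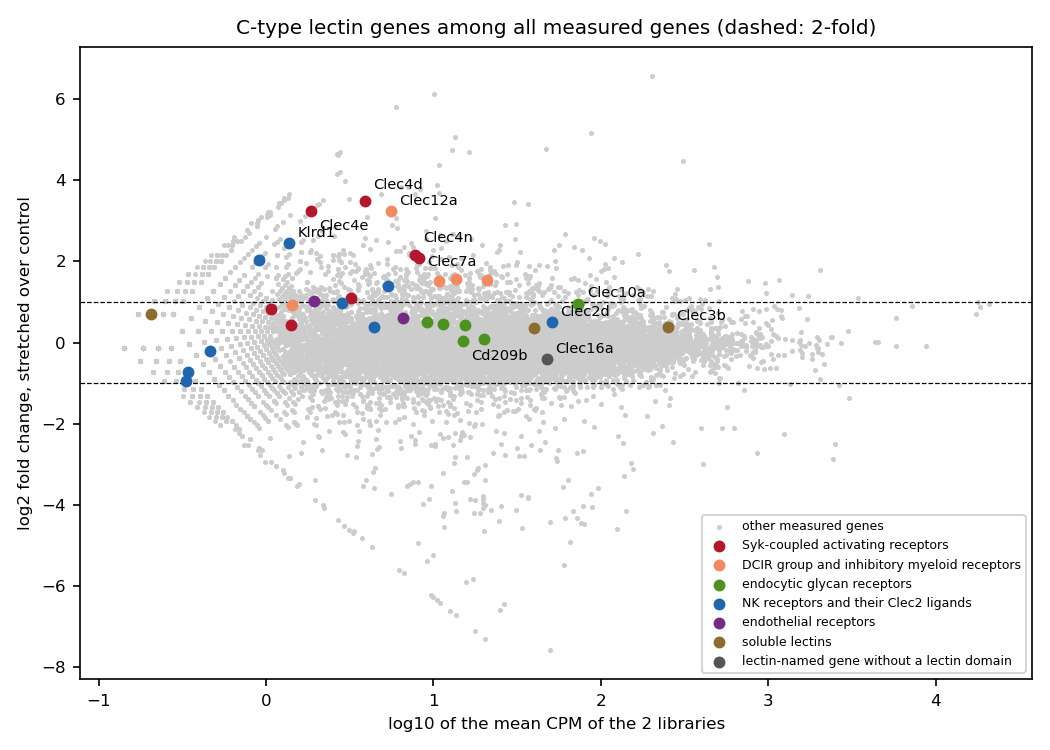
Log2 fold change of stretched over control skin (vertical axis, counts of 3 or fewer set to 3) against the log10 of the mean CPM of the 2 libraries (horizontal axis) for 16255 measured genes in grey and the 33 measured C-type lectin genes in colour by role. Clec4d, Clec4e and Clec12a lie above 3 at low mean levels, and the abundant Clec3b and Clec10a lie below the dashed line of 2-fold.

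The activating receptors coupled to Syk had the highest median of the role groups, although not each of them was called. They include Clec4d (MCL, also called Dectin-3) and Clec4e (Mincle), which bind the mycobacterial cord factor and lie next to each other at chr6:123262111-123275265 (plus strand) and chr6:123281789-123289870 (minus strand) of mm10. Clec7a (Dectin-1), the receptor of fungal beta-glucan, is annotated as a polymorphic pseudogene. It lies further along the same chromosome at chr6:129461591-129472779 on the minus strand. Their promoters are shown because these 3 are the activating receptors with the largest fold changes for which RefSeq lists a start site, whereas Clec4n is not among the entries. Each line is the 250 bases before the start site on the gene's strand, from RefSeq on GRCm38.p6, and capitals mark GAGGAA or its reverse complement TTCCTC, the core bound by ETS factors such as PU.1 of myeloid cells.
Clec4d, chr6:123261857-123262106: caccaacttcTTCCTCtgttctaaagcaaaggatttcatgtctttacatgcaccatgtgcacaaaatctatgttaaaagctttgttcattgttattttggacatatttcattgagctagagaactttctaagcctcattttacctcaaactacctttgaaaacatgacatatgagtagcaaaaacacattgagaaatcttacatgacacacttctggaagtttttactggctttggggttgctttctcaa
Clec4e, chr6:123289872-123290121: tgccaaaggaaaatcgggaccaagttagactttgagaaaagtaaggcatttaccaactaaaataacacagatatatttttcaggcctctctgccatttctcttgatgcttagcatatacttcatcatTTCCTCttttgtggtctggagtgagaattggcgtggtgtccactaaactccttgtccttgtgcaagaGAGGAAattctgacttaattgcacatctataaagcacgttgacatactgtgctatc
Clec7a, chr6:129472780-129473029: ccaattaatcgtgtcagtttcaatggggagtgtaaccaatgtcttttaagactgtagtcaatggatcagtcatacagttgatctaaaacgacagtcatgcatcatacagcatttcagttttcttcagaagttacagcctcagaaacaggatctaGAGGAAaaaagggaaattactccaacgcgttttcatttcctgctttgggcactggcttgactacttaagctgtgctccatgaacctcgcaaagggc
The Clec4e promoter held 2 matches, and those of Clec4d and Clec7a held 1 each. On either strand, these letters occurred in 16 of the 32 lectin promoters listed and in 23.1% of 27025 promoters of the same length. They occurred in 7 of the 10 listed genes that were called higher and in 9 of the other 22. The other motifs searched, both strands included, were TGANTCA (AP-1, 7 of 32 lectin promoters and 6.87% of all), TTGCNNAA (C/EBP, 6 of 32 and 9.55%) and TTCNNNGAA (GAS, 1 of 32 and 7.18%). None of the 21 ETS matches in lectin promoters overlapped another motif. A match of letters is a description and not evidence of a bound site.

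Of the 9 activating receptors, 7 were measured, 5 of these were called higher, and their median log2 fold change was 2.09. Clec4d was counted 9 times in control skin (0.636 CPM) and 83 times under stretch (7.13 CPM), and its log2 fold change was 3.49 (interval 2.49 to 4.66). It had the largest fold change of the lectin genes and ranked 30 of the 16255 measured genes. Clec4e had 5 and 39 counts (3.24, interval 1.90 to 4.95). Clec4n (Dectin-2), a receptor of fungal mannans, had 40 and 148 (2.17, interval 1.66 to 2.71), and Clec7a had 44 and 154 (2.09, interval 1.60 to 2.61). The CPM intervals of the libraries did not overlap for any of these 4 genes. The interval of each ratio lay wholly above 2, as it did for 2.41% of all genes. Clec5a (MDL-1), which pairs with DAP12, was closer to the threshold with 29 and 51 counts (1.10, interval 0.41 to 1.81).

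The other activating receptors were not called, at counts where a 2-fold difference lies inside the interval. Clec9a (DNGR-1), which senses the actin of dead cells and marks cross-presenting dendritic cells, had 11 and 16 counts (log2 fold change 0.82, interval -0.38 to 2.07). Clec4b1 (DCAR), an activating receptor of the Clec4 group, had 17 and 19 (0.44, interval -0.58 to 1.48). Clec1b, the platelet receptor of podoplanin, had 1 and 2 counts, and Clec4b2 had 0 in both libraries, so that neither was measured. The exact interval of a count of 0 reaches 0.261 CPM in the control library and 0.317 CPM in the stretched one.

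**Figure D2:**
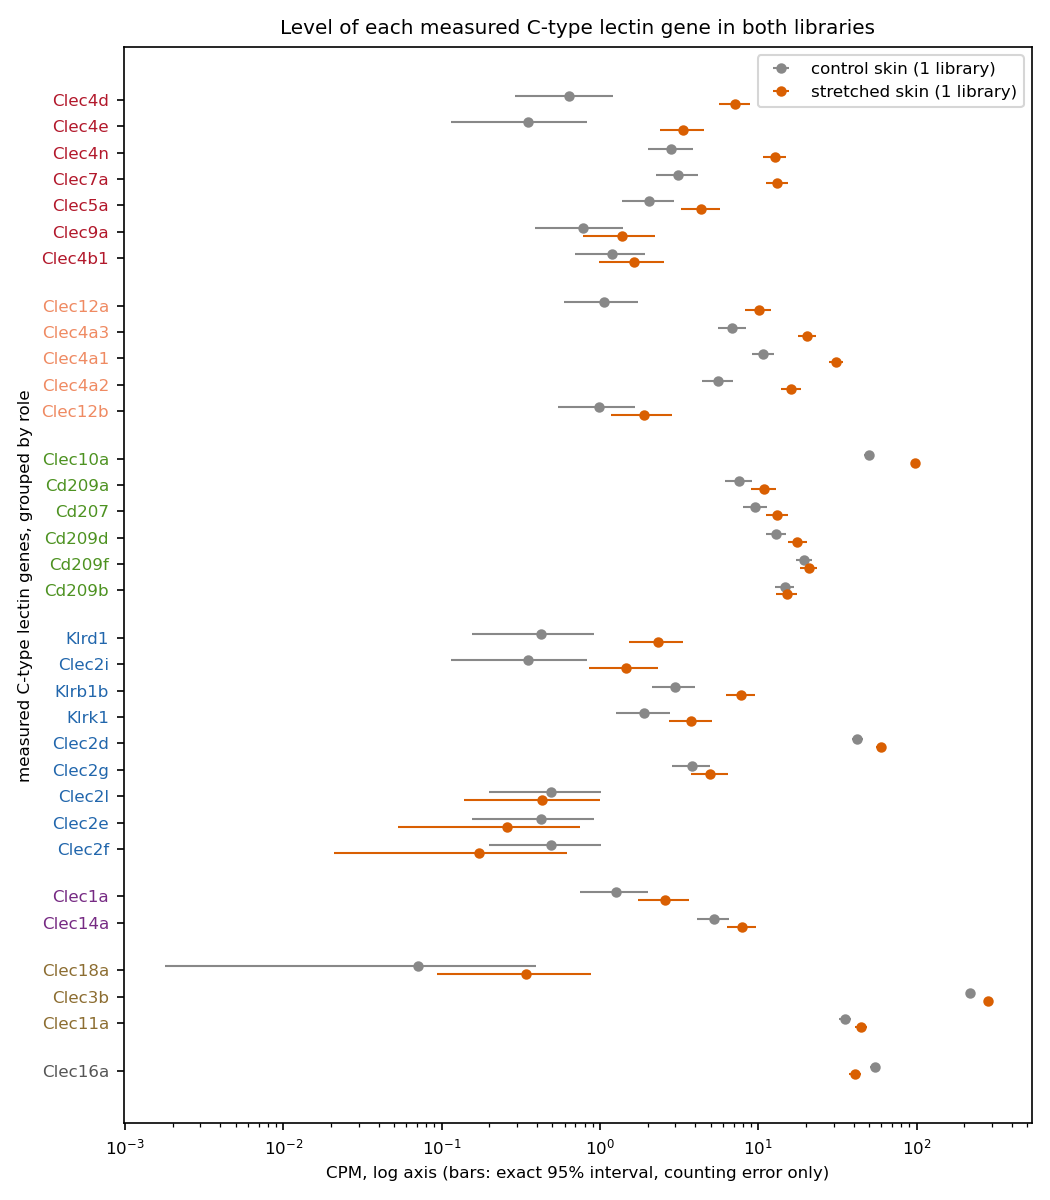
CPM on a log axis of each measured C-type lectin gene in the control library (grey) and the stretched library (orange), with genes ordered by role and exact 95% intervals of counting error as bars. The points of Clec4d, Clec4e, Clec12a and Klrd1 stand farthest apart among genes with a called difference, and those of Cd209b and Cd209f nearly coincide.

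Most of the measured DCIR group and inhibitory myeloid receptors were higher in stretched skin as well. The DCIR group is named after the dendritic cell immunoreceptor, a receptor with an inhibitory motif that not all of its mouse relatives carry. Of the 6 genes of this role, 5 were measured and 4 were called higher, with a median log2 fold change of 1.54. Clec12a (MICL), an inhibitory receptor for uric acid crystals at chr6:129342691-129365303, had 15 counts (1.06 CPM) in the control library and 117 in the stretched one (3.24, interval 2.46 to 4.13). The 3 measured Clec4a genes had larger counts and nearly equal fold changes. Clec4a1 had 152 and 363 counts (1.54, interval 1.26 to 1.82). Clec4a3 had 97 and 237 (1.57, interval 1.22 to 1.93), and Clec4a2 had 79 and 187 (1.52, interval 1.14 to 1.92). The intervals of these 3 genes overlapped one another. Clec12b, an inhibitory relative next to Clec12a, had 14 and 22 counts (0.93, interval -0.10 to 2.01). The log2 fold change of Clec12b minus that of Clec12a was -2.31 (interval -3.67 to -0.93), so these neighbours differed beyond counting error. Clec4a4 (0 and 2 counts) was unmeasured, and it shares 12.6% of its 76-base stretches with Clec4a2.

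The macrophage genes were also higher in stretched skin, and the lectin genes were set against them as measured in the same libraries. Of 9 macrophage markers, 8 were called higher, their median log2 fold change was 1.36, and their sum went from 866 to 1994 CPM. Lyz2 (3975 and 8471 counts, 1.37), Csf1r (1763 and 3216, 1.15), C1qa (1370 and 2810, 1.32), C1qb (1.36), C1qc (1.23), Cd68 (1.47), Cd14 (1.78) and Adgre1 (472 and 1148, 1.56) were the called ones. The difference in log2 fold change from Adgre1, the usual surface marker of mouse macrophages, lay above 0 beyond counting error for 5 of the 33 lectin genes. These were Clec4d (1.92 above, interval 0.91 to 3.11), Clec12a (1.68, interval 0.88 to 2.58), Clec4e (1.68, interval 0.32 to 3.39), Clec4n (0.61, interval 0.07 to 1.17) and Clec7a (0.53, interval 0.01 to 1.07). For Clec4a1, Clec4a2 and Clec4a3 the difference was -0.03, -0.04 and 0.01, with intervals from -0.35 to 0.30, from -0.46 to 0.39 and from -0.38 to 0.40. The interval included 0 for 13 lectin genes in all and lay below 0 for 15. Against Csf1r it lay above 0 for 7, included 0 for 13 and lay below 0 for 13. These comparisons were made for the lectin genes alone, so no share over all genes stands beside the counts. The intervals were not adjusted for their number. All 5 neutrophil markers were called higher (median 2.51, from 14.3 to 69.8 CPM in sum), among them S100a8 (57 and 283 counts, 2.59), Csf3r (50 and 235, 2.51), S100a9 (69 and 187, 1.72), Cxcr2 (25 and 77, 1.90) and Retnlg, with 1 and 31 counts (5.24, interval 2.65 to 10.6). Of 6 dendritic cell markers, 4 were called higher (median 1.64, from 10.2 to 26.1 CPM in sum): Itgax (47 and 152 counts, 1.97), Flt3 (16 and 33, 1.33), Ccr7 (3 and 29, 3.55, interval 1.86 to 5.91) and Batf3 (10 and 32, 1.96), while Zbtb46 stood at 0.28 and Xcr1 at -0.44. How much of the lectin differences these cells account for was not tested.

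**Figure D3:**
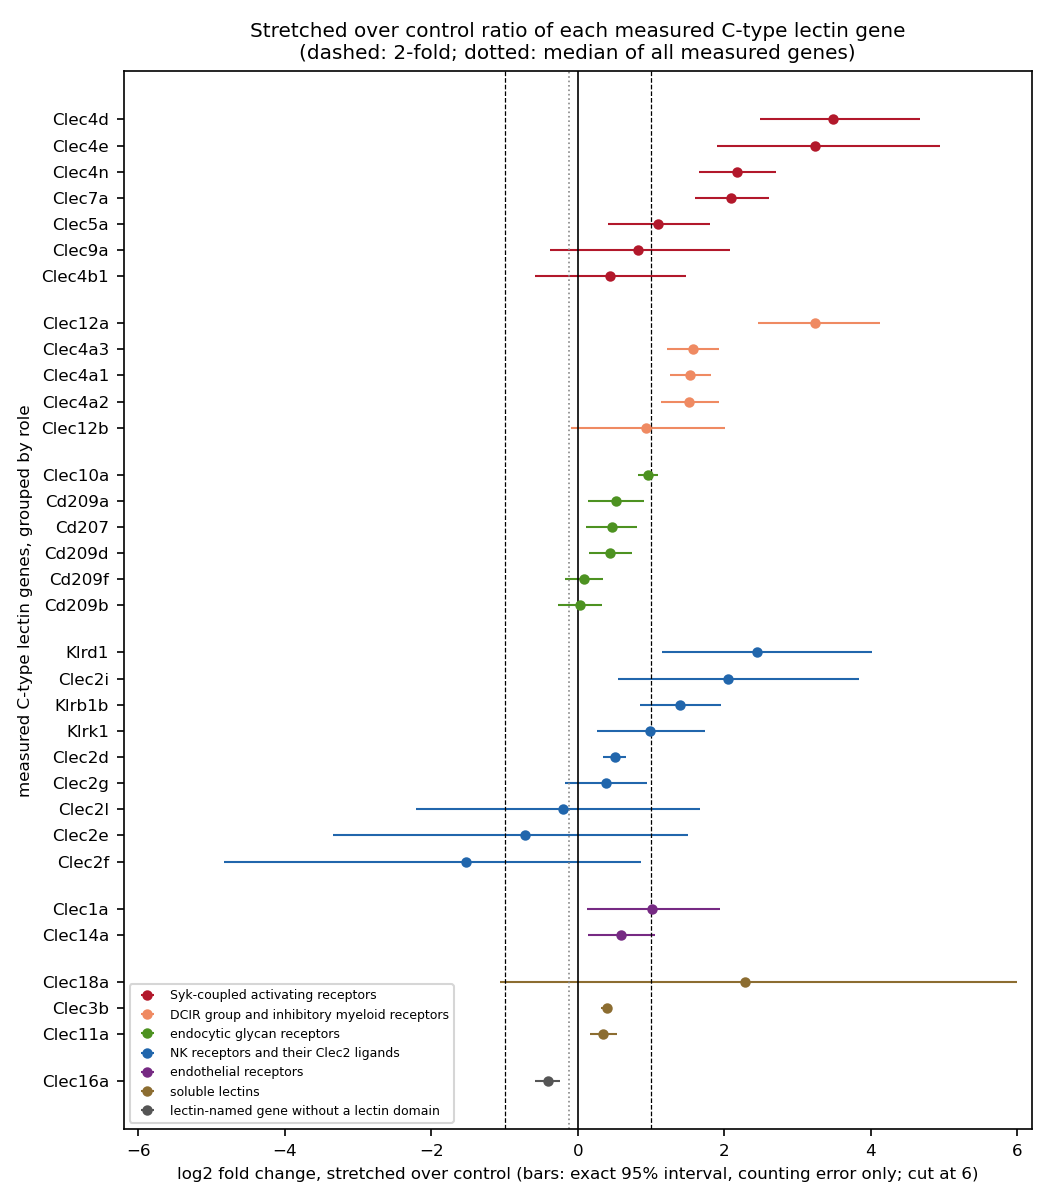
Log2 fold change of stretched over control skin for the 33 measured C-type lectin genes by role, as the ratio of the counts as deposited, with exact 95% intervals of counting error (bars, cut at 6). Solid, dashed and dotted lines mark no difference, 2-fold and the median of all measured genes at -0.12, and the activating and DCIR groups lie to the right of 0 while the Clec2 genes spread on both sides.

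The endocytic receptors of glycans were less different between the libraries. They include langerin, the macrophage galactose lectin Clec10a (MGL1) and the Cd209 genes, mouse relatives of DC-SIGN. Of 8 genes, 6 were measured, none was called, and their median log2 fold change was 0.45. Clec10a, at chr11:70156197-70170834, was the most abundant of them per exon length, at 17.2 and 33.5 FPKM (counts per exon length and library total). Its 706 and 1132 counts gave a value of 0.96 on the log2 scale (interval 0.83 to 1.10), just under the threshold. This exceeded the fold change of each measured Cd209 gene of the set, by 0.45 (interval 0.03 to 0.85) for Cd209a, 0.52 (interval 0.19 to 0.84) for Cd209d, 0.88 (interval 0.59 to 1.17) for Cd209f and 0.93 (interval 0.60 to 1.26) for Cd209b. It also exceeded by 0.997 (interval 0.74 to 1.25) that of Mgl2, its nearest relative, which had 417 and 335 counts and with which it shares 4.32% of its 76-base stretches. These pairs were chosen after their values were seen.

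Among the Cd209 genes, Cd209a had 107 and 126 counts (0.52, interval 0.13 to 0.90) and Cd209d had 184 and 206 (0.44, interval 0.15 to 0.74). Cd209f had 277 and 242 (0.09, interval -0.17 to 0.34), and Cd209b had 209 and 176 (0.03, interval -0.26 to 0.33), so that for both the interval leaves out a 2-fold difference in either direction. Cd209f shares 23.4% of its stretches with Cd209g and is uncertain for that reason. The Cd209 genes outside the set stood at -0.60 (Cd209c, 85 and 46 counts, interval -1.16 to -0.07), 0.20 (Cd209e, 54 and 51) and 0.42 (Cd209g, 77 and 85). Cd207 had 135 and 153 counts (0.46, interval 0.12 to 0.81). Of 5 genes read as Langerhans cell markers beside it, Cd74 (3548 and 6196 counts, 1.09) and H2-Aa (1546 and 2624, 1.04), which other antigen-presenting cells share, were called higher, whereas the others, among them Epcam (-0.08) and Il34 (0.06), were not. The median of the 5 was 0.06, and they summed to 825 and 1175 CPM. Clec4f (0 and 1 count), the lectin of Kupffer cells in liver, and Clec4g (1 and 1), of sinusoidal endothelium, were unmeasured.

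The NK cell receptors and Clec2 ligands were split. Of 10 genes, 9 were measured and 3 were called higher, with a median log2 fold change of 0.50. The median was 1.19 with at least 20 counts over both libraries, which leaves out Clec2l, Clec2e and Clec2f. Klrd1 (CD94), the partner chain of the NKG2 receptors, had 6 and 27 counts (2.45, interval 1.14 to 4.02). Klrb1b (NKR-P1B), an inhibitory receptor, had 42 and 91 (1.40, interval 0.85 to 1.96), but 24.3% of its 76-base stretches occur in other genes and 26.9% of its exon bases lie inside Gm44511. Klrk1 (NKG2D), an activating receptor of stress ligands, had 27 and 44 (0.99, interval 0.26 to 1.73) and was not called. Clec2d (Clr-b), the ligand of NKR-P1B, was by far the most abundant Clec2 gene at 34.8 and 49.3 FPKM. Its 597 and 696 counts gave 0.50 (interval 0.34 to 0.66), which Klrb1b exceeded by 0.89 (interval 0.33 to 1.48), a pair chosen after its values were seen.

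The other Clec2 genes had few counts. Clec2i (Clr-g), also an NK receptor ligand, had 5 and 17 (2.05, interval 0.55 to 3.84) and was called higher. Clec2g, with 54 and 58 counts, stood at 0.38 (interval -0.18 to 0.95). Too few reads fell on the remaining ones for a direction to be read. Clec2l had 7 and 5 counts (log2 fold change -0.20), Clec2e had 6 and 3 (-0.72, interval -3.35 to 1.51) and Clec2f, annotated as a pseudogene, had 7 and 2 (-1.53, interval -4.83 to 0.87). Clec2h had 0 in both libraries. NK cell markers were near the floor, and their sums were 3.18 and 5.32 CPM. Of 6 measured markers of 7, 2 were called higher (median 0.75). Ncr1, a defining NK marker, had 0 and 5 counts, and the log2 ratio has a lower limit of 0.15. Gzma had 1 and 8 (3.28, interval 0.38 to 8.75), Eomes had 0 and 3, and Nkg7 (20 and 24), Prf1 (14 and 11) and Klrb1c (5 and 8) had intervals that included 0. Which cells carried the NK receptor transcripts was not tested.

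Of the 24 lectin genes in the gene clusters of chromosome 6, 12 of the 20 measured were called higher, and none of the 4 measured in the cluster of chromosome 8 was. A cluster was taken as at least 3 members, each within 1 Mb of the next, so that the pair Cd207 and Clec4f on chromosome 6 is not one. The Clec4 cluster at chr6:122921848-123289870 holds the DCIR genes, Clec4b1, Clec4b2, Clec4n, Clec4d and Clec4e, and 6 of its 7 measured genes were called higher (median log2 fold change 1.57). In the NK gene complex at chr6:128662385-129623864, from Clec2h to Klrk1, 6 of 13 measured members were called higher (median 0.99). Genes of the complex outside the set were not counted here. The Cd209 cluster at chr8:3707064-4105835 had a median of 0.26. Outside the clusters 1 of 9 measured genes was called, Clec5a, and the median was 0.46. Neighbours did not all have like fold changes. Of 21 pairs of successive measured members, with any gene outside the set skipped, the fold changes differed beyond counting error in 5. Clec4d exceeded Clec4n by 1.32 (interval 0.16 to 2.61) and Clec12a exceeded Clec2d by 2.74 (interval 1.94 to 3.64), while Clec4b1 minus Clec4a3 was -1.13 (interval -2.22 to -0.03) and Clec2g minus Clec2i was -1.66 (interval -3.54 to -0.03). Clec12b and Clec12a, given above, were the fifth pair. Clec4e and Clec4d could not be told apart (difference -0.24, interval -2.08 to 1.78).

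**Figure D4:**
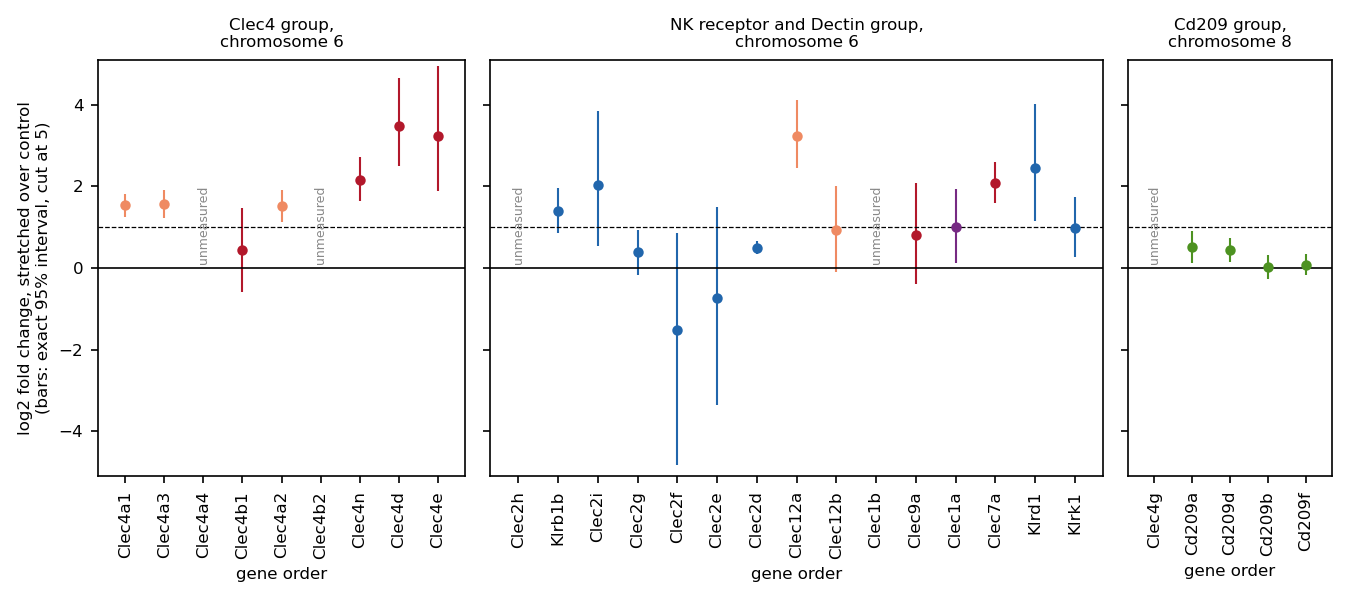
Log2 fold change of stretched over control skin for lectin genes in the order in which they lie in the 3 gene clusters, with exact 95% intervals of counting error (cut at 5), colours by role as in the plot of fold changes by role, and unmeasured genes written in. All measured genes of the Clec4 cluster lie above 0, and 6 of them above the dashed line of 2-fold. The 4 measured Cd209 genes of the set lie between 0.03 and 0.52.

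The endothelial and soluble lectins and Clec16a completed the family. Clec14a, an endothelial receptor of the matrix protein multimerin-2 (Mmrn2), had 74 and 92 counts (log2 fold change 0.59, interval 0.14 to 1.06). Clec1a (MelLec), a receptor of fungal melanin on endothelium and myeloid cells, had 18 and 30 (1.02, interval 0.13 to 1.95) and had the smallest fold change of the genes called higher. Neither differed beyond counting error from Pecam1 (851 and 988 counts, 0.50), with differences of 0.10 (interval -0.38 to 0.58) and 0.52 (interval -0.38 to 1.46). None of 5 blood endothelium markers was called (median 0.31, from 182 to 226 CPM in sum), Cdh5 (709 and 866 counts) stood at 0.57 and Kdr (442 and 281) at -0.37, and Tek (-0.03) and Emcn (0.31) had intervals that included 0.

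Clec3b (tetranectin), a secreted protein that binds plasminogen, was the most abundant lectin gene per exon length, at 218 and 286 FPKM. Its 3064 and 3310 counts gave 0.39 on the log2 scale (interval 0.32 to 0.46). It exceeded 2 fibroblast genes beyond counting error, Pdgfra (1781 and 1659 counts) by 0.21 (interval 0.09 to 0.33) and Dcn (21408 and 18319) by 0.34 (interval 0.26 to 0.41), while the collagen genes Col1a1 (168121 and 277385 counts, called higher) and Col1a2 (183341 and 275799, 0.87) were above it. The 4 fibroblast markers had a median of 0.52 and summed to 26473 and 49204 CPM. Clec11a, a secreted growth factor of bone marrow and bone, had 498 and 522 counts (0.35, interval 0.17 to 0.53). Clec18a had 1 and 4 (2.28, interval -1.06 to 7.90), and Clec3a, a cartilage gene, had 0 in both. Clec16a, a regulator of autophagy that is named as a lectin but has no working lectin domain, was the single gene with an interval below 0. The control library had 770 counts of it and the stretched library 476 (-0.41, interval -0.58 to -0.25).

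The signalling partners of the activating receptors were higher in part. Of 21 adaptor and kinase genes, 7 were called higher and none lower, with a median log2 fold change of 0.78 and a range from -0.52 to 1.87. The adaptors that carry the activating motif were among the called ones. Fcer1g, the partner of Clec4d, Clec4e and Clec4n, had 364 and 898 counts (1.58, interval 1.41 to 1.76), and Tyrobp, the partner of Clec5a, had 254 and 626 (1.58, interval 1.37 to 1.80). Hcst (DAP10), which pairs with NKG2D, had 4 and 12 (1.87, interval 0.14 to 3.95), and the other called genes were Fgr (1.64), Lcp2 (1.58), Vav1 (1.40) and Lyn (1.14). Syk itself had 492 and 619 counts (0.61, interval 0.44 to 0.79), and Card9 had 58 and 82 (0.78, interval 0.28 to 1.29). Prkcd (1240 and 1103 counts, 0.11) and Bcl10 (637 and 631, 0.27), which had the most counts of the list, were not called. Of 4 phosphatase genes of inhibitory receptors, Inpp5d (SHIP-1) was called higher (228 and 446 counts, 1.25, interval 1.02 to 1.49), Ptpn6 (SHP-1) stood at 0.55, and Ptpn11 (3245 and 1925 counts, -0.47) and Inpp5b (-0.20) lay below 0, with a median of 0.17.

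Among 11 transcription factors downstream, Nfatc2 alone was called (386 and 713 counts, 1.17, interval 0.99 to 1.35), the median was 0.53, and the most abundant, Egr3 (2419 and 1431, -0.48), Nfkb1 (1563 and 1317, 0.03) and Rela (1012 and 1123, 0.43), were not. Of 11 genes listed as outputs of Syk and Card9 signalling, 8 were measured and 4 were called higher, with a median of 1.11 (counts of 3 or fewer set to 3, which touches Cxcl2, Il10 and Il12a). Il1b had 37 and 179 counts (2.56, interval 2.04 to 3.11) and Tnf had 17 and 36 (1.36, interval 0.49 to 2.29). Cxcl2 had 2 and 61 (5.21, interval 3.30 to 8.29), and Il10 had 2 and 7 (2.09, interval -0.30 to 5.39). Ptgs2, with 169 and 157 counts (0.17), had the most counts of the list and was not called. Of 18 genes for ligands, 10 were measured and 3 were called higher, with a median of 0.61. These were Vim (12005 and 22335 counts, 1.18), a ligand of Dectin-1, and S100a8 and S100a9, given above. Pdpn, the ligand of the unmeasured Clec1b, had 755 and 1215 counts (0.97, interval 0.84 to 1.10, likewise past 2-fold under each other scaling), H2-T23, whose product presents peptides to CD94 and NKG2A, had 770 and 1068 (0.75), and Mmrn2 had 294 and 335 (0.47, interval 0.24 to 0.70). H60c, a ligand of NKG2D in skin, had 214 and 116 counts and lay below 0 (-0.60, interval -0.94 to -0.27).

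Other genes with a C-type lectin domain gave a background for the family. Of 40 measured, 12 were called higher and 1 lower, with a median log2 fold change of 0.49. Among those called higher were selectins of the vessel wall, adhesion receptors that bind sugars of leukocytes. Sele had 36 and 107 counts (1.85, interval 1.30 to 2.44) and Selp had 63 and 149 (1.52, interval 1.09 to 1.97). Reg1 had 1 and 64 counts (6.28, interval 3.75 to 11.6), and Reg3g had 0 and 13, with a lower limit of 1.89. Cd69, Olr1, Klrg1, Klrc1, Klrb1a, Klra2 and Klra7 were also called higher, at no more than 25 counts in a library. Acan was the gene called lower (234 and 89 counts, -1.11). The members with the most counts were not called, with Mrc1 (CD206), the macrophage mannose receptor, at 1649 and 2613 counts (0.94, interval 0.86 to 1.03, which the shift of each other scaling takes past 2-fold), Cd248 at 2088 and 2035 (0.24) and Vcan at 2098 and 1826 (0.08).

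**Figure D5:**
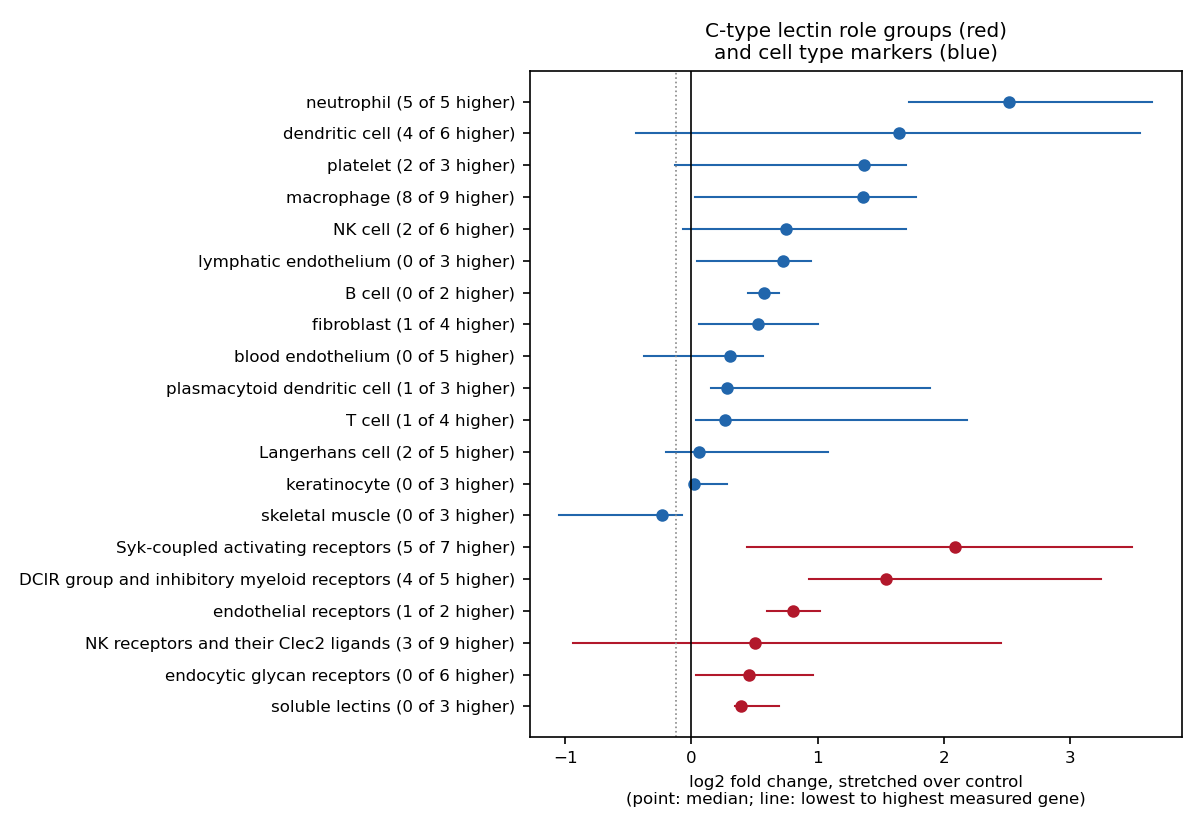
Median (point) and lowest to highest (line) log2 fold change of the measured genes in each role group of C-type lectins (red) and each list of cell type markers (blue), with the number called higher in brackets; the solid line is no difference and the dotted line the median of all measured genes. The activating receptors at 2.09 and the DCIR group at 1.54 stand with the neutrophil (2.51), dendritic cell (1.64) and macrophage (1.36) markers, and the endocytic and soluble lectins at 0.45 and 0.39 stand lower.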

How the data were processed

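Whole-layer skin RNA was sequenced as 1 library per condition. The authors filtered the reads of 76 bases with the FASTX-Toolkit, aligned them to mm10 with TopHat2 and deposited a count of reads per gene symbol, not normalized. Which program counted the reads, on which annotation, and how strand or reads shared by genes were handled is not given in the sources used here. Totals were 14152379 (control) and 11648655 (stretched), so 3 counts equal 0.212 and 0.258 CPM. PCR duplicates could not be removed, and intervals cover counting error only.

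CPM used the total count of each library, and FPKM also the union of exons in GENCODE M21 (23376 symbols matched by name, 669 by synonym, 376 not matched). The ratio of CPM has an exact Clopper-Pearson interval at 95%, and differences between 2 genes have the exact conditional interval of the odds ratio. Calls need a ratio of at least 2 or at most 0.5 with counts of 3 or fewer set to 3. The scripts were tested on simulated data. Shared 76-base stretches were counted between exons of different genes.

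The members and lists were chosen with earlier results of these data known. Every measured member is named with its counts and fold change. Of the other lists, the 3 genes with most counts and any called gene are named, apart from a few that are counted in their lists but not reported here by name. As alternatives, the libraries were scaled with TMM factors from edgeR 4.0.16, size factors from DESeq2 1.42.0, upper quartiles, or totals that left out the 50 top genes, and the calls were repeated with a minimum of 20 counts over both libraries, with 1 CPM added, and by intervals. After seeing the data, calls by the filter of the methods on FPKM (product above 10, with nothing or 1 added to each FPKM), a minimum of 100 counts and a median without members that share 10% or more of their stretches or exon bases were added. Python 3.11.15 and R 4.3.3 were used.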

Additional observations from a re-analysis of the deposited data

How the results depend on the processing

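With 1 library per condition, the intervals describe these libraries and not the conditions. Of the 33 measured C-type lectin genes, 13 were called higher with total counts, 16 by TMM, by the median of ratios and by the upper quartile, 15 without the top genes, 13 with at least 20 counts and 10 with 1 CPM added. The 13 genes were among those called under each scaling, with Klrk1 and Clec10a added in all 4 and Clec12b in 3. Adding 1 CPM lost Clec1a, Clec2i and Clec5a. The share of all genes called under these scalings, or with 1 CPM added, was not counted. By intervals wholly past 0, 22 were higher and 1 (Clec16a) lower (18.1% and 33.5% of all genes). By intervals wholly past 2-fold, 9 were higher. The next 3 settings were added after seeing the data. With a product of FPKM above 10, as in the methods, 4 were called higher (Clec4a1, Clec4a2, Clec4a3 and Clec4n), and with 1 added to each FPKM 5, which include Clec7a. With at least 100 counts, 7 were called higher. These settings drop low genes. The median log2 fold change of 0.82 was between 0.89 and 0.96 with the other scalings and with at least 20 counts, 0.51 with 1 CPM added, 0.52 with at least 100 counts, 0.48 with the FPKM product above 10, 0.46 with 1 added to each FPKM, and 0.82 without members that share reads. Among the genes of the other lists, Flt4, Klrb1c, Lat2, Mrc1 and Pdpn passed 2-fold under all 4 scalings and Layn under 3, and Ckm, called lower with total counts, was not called under any of the 4. No list median or single lectin gene changed sign where its interval left out 0. Single genes of the other lists were not counted for this, and the TMM shift of 0.10 would turn Acta1 (-0.07) positive. The median of the NK receptors and Clec2 ligands went from 0.50 to 1.19 with at least 20 counts, and that of the platelet markers from 1.36 to 0.61 with at least 20 counts and 0.56 with 1 CPM added. Adding 1 CPM also put the neutrophil median at 1.77 (from 2.51), the dendritic cell median at 0.99 (from 1.64), that of the Syk and Card9 outputs at 0.49 (from 1.11) and that of the NK cell markers at 0.33 (from 0.75, and 0.24 with at least 20 counts). The 4 scalings put the keratinocyte median (0.02) between 0.08 and 0.13 and the muscle median (-0.24) between -0.17 and -0.12. With 1 CPM added, Clec4d stood at 2.31, Clec12a at 2.42 and Clec4e at 1.68, outside their intervals. No paired analysis was possible because each condition has a single library.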

Other observations

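The remaining marker lists are given as values. Of 4 measured T cell genes, Cd4 was called higher (15 and 56 counts, log2 fold change 2.18), which macrophages can also express, whereas Cd3g (51 and 56), Cd3e (27 and 24) and Cd3d (19 and 16) had intervals that included 0 (median 0.26). Of 4 B cell genes, 2 were measured and none was called (median 0.57), and Cd79b had 8 and 9 counts. None of 3 lymphatic endothelium genes was called (median 0.73), with Lyve1 at 667 and 567 counts (0.05), Flt4 at 136 and 216 (0.95, past 2-fold under each other scaling) and Prox1 at 22 and 30 (0.73). Among platelet genes, Itga2b had 127 and 269 counts (1.36) and Ppbp 2 and 8 (2.28, interval -0.04 to 5.55), both called higher, and Gp1ba had 12 and 9. Their median of 1.36 was 0.61 with at least 20 counts and 0.56 with 1 CPM added. Among plasmacytoid dendritic cell genes, Bst2, which interferon also raises, had 225 and 687 counts (1.89, called higher), Tcf4 had 1216 and 1113 and Siglech 11 and 11 (median 0.28). The keratinocyte genes had a median of 0.02 with none called, and of the skeletal muscle genes Acta1 (-0.07), Ckm (50821 and 20271 counts, -1.05) and Mylpf (30182 and 21102, -0.24), Ckm was called lower with total counts but under no other scaling.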
